A study of Mus musculus with 6 samples.

Results

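The genes described here are 10 genes that lie on the mouse genome as 5 neighbouring pairs: Ccl20 with Daw1, Il17rb with Chdh, Mstn with 1700019D03Rik, Nsmf with Noxa1, and Lbh with Lclat1. They are 10 of the 55840 genes in the deposited table and 10 of the 14919 that passed the filter on low counts. The pairs were chosen on the measured difference between the genotypes, because both genes of a pair differed in the same direction, so their values in that contrast are a description and support nothing further. The RNA was that of Tregs, the regulatory lymphocytes that restrain immune responses and need Foxp3, a transcription factor. In the spleen and lymph nodes of mice, WT Tregs (3 libraries) were compared with Exon2KO Tregs (3 libraries), which carry Foxp3 without its exon 2 and are written with a delta 2 mark in the title of the series. The labels call the libraries of each genotype biological replicates. Strain, age, the way the edited mice were made, the sorting gate and any pooling of animals are not given in the sources used here.

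Libraries held 17998216 to 21003496 counts. They are named here by genotype and by the number in their column name (2, 6 or 20), whose meaning no label gives. The libraries numbered 20 stood apart from the others on the first principal component of log2 CPM (33.2% of the variance, scores of -36.9 for WT 20 and -33.5 for Exon2KO 20), and the second component (29.9%) separated the genotypes. Foxp3, the edited gene, had 712 ± 96.5 CPM (counts scaled to a common library size; SD, n = 3) in WT and 812 ± 121 CPM (SD, n = 3) in Exon2KO; counts per gene cannot show the missing exon, so they do not check the labels. The Treg and T cell markers Foxp3, Il2ra, Ctla4, Ikzf2, Cd4 and Cd3e were present in every library, with a summed level of 3000 to 3480 CPM in WT and 2770 to 3120 CPM in Exon2KO. Of these 6 genes, edgeR (quasi-likelihood test, adjusted p under 0.05) called 3 lower in Exon2KO, where 1.58% of all tested genes were: Ctla4 (log2 fold change -0.85), Ikzf2 (-0.66) and Il2ra (-0.52).

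Genes that lie side by side can share a promoter, an enhancer or a stretch of open chromatin, and reads can also run from a gene into its neighbour. Divergent genes that start back to back often have a common promoter, while genes in tandem or tail to tail start far from each other. The 10 genes have unlike jobs. Ccl20 encodes a chemokine that draws cells with the receptor Ccr6 and is made by epithelium and by type 17 T cells, and Il17rb encodes the receptor chain for the cytokine IL25. Mstn encodes myostatin, a TGF-beta family ligand known for limiting muscle growth, and Noxa1 encodes an activator of the superoxide-producing oxidase NOX1.

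The geometry of the pairs differed. Il17rb (ENSMUSG00000015966, chromosome 14, 29996135 to 30008896, minus strand) and Chdh (ENSMUSG00000015970, chromosome 14, 30009023 to 30040527, plus strand) lie head to head with 126 bases between them. The genes 1700019D03Rik (ENSMUSG00000043629, chromosome 1, 52922324 to 53020179, minus strand) and Mstn (ENSMUSG00000026100, chromosome 1, 53061640 to 53068079, plus strand) are also head to head, 41.5 kb apart. Ccl20 (ENSMUSG00000026166, chromosome 1, 83116766 to 83119167) and Daw1 (ENSMUSG00000053161, chromosome 1, 83159752 to 83210574) run in tandem on the plus strand, 40.6 kb apart. Lbh (ENSMUSG00000024063, chromosome 17, 72918305 to 72941947) and Lclat1 (ENSMUSG00000054469, chromosome 17, 73107985 to 73243368) are in tandem on the plus strand as well, 166.0 kb apart. Nsmf (ENSMUSG00000006476, chromosome 2, 25054355 to 25062881, plus strand) and Noxa1 (ENSMUSG00000036805, chromosome 2, 25085667 to 25095149, minus strand) lie tail to tail, 22.8 kb apart. Positions are those of the table, on the build mm10 (GRCm38).

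**Figure D1:**
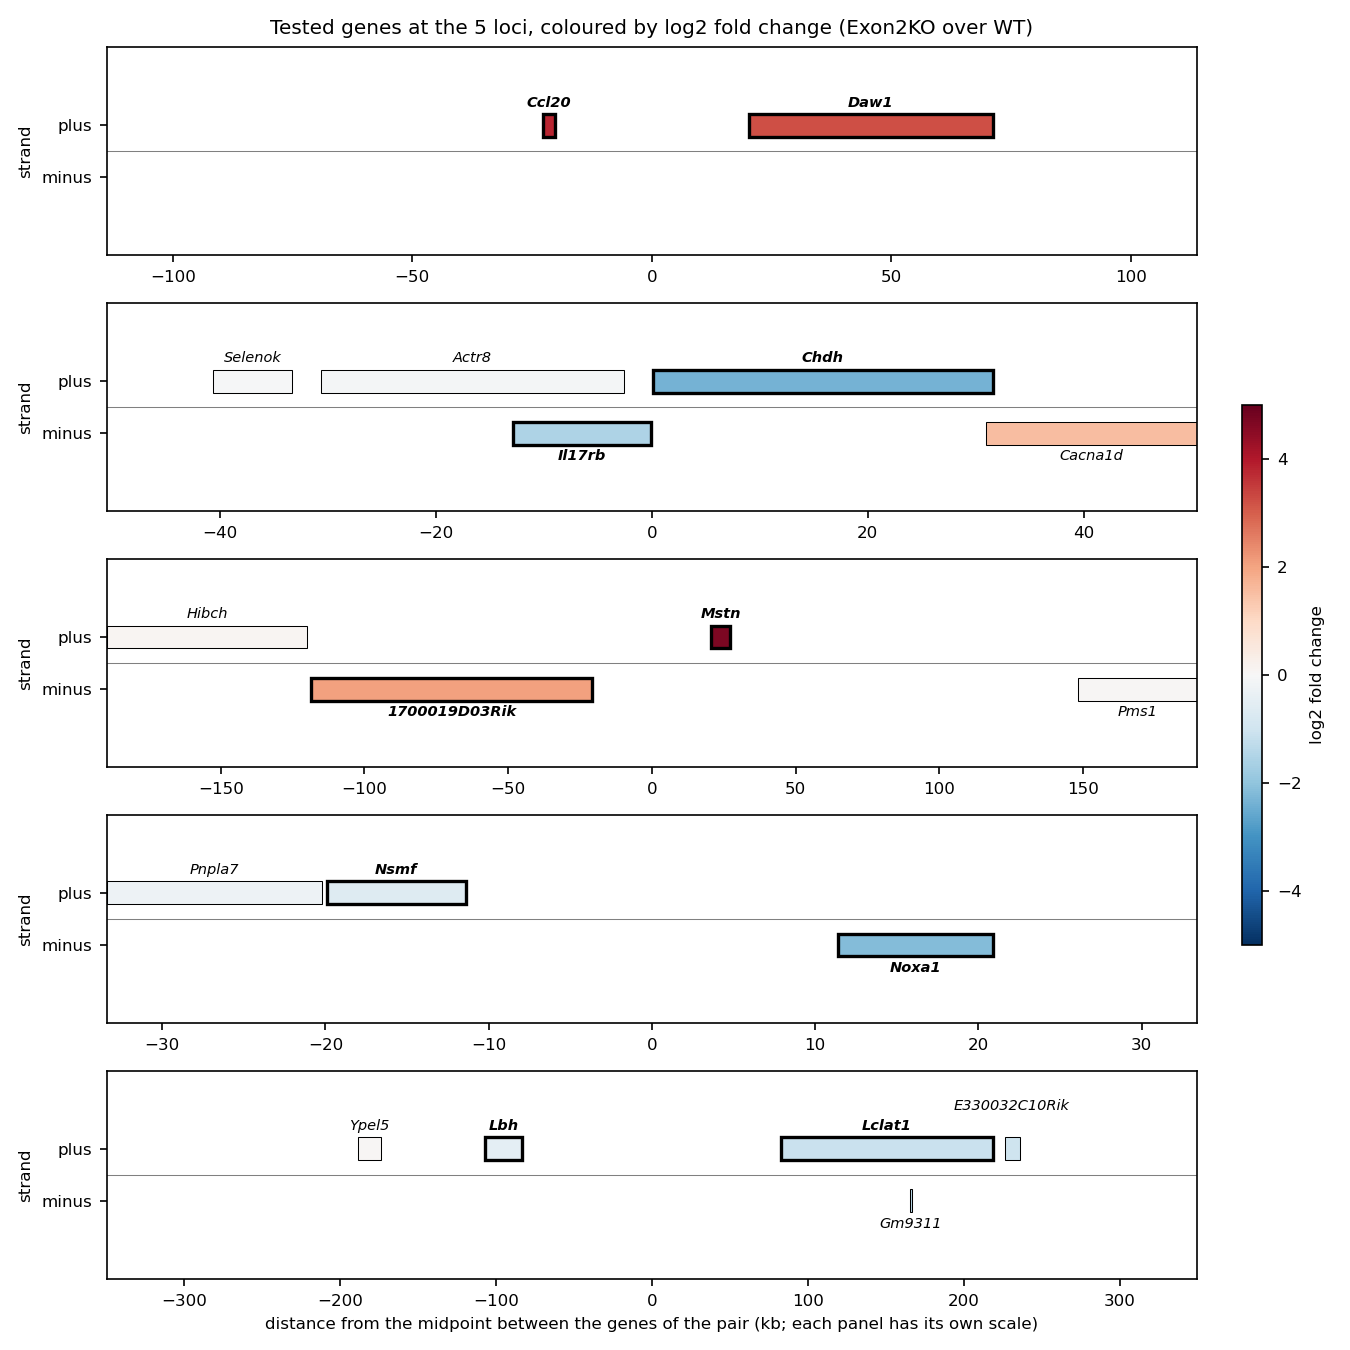
Each panel draws the tested genes around 1 pair to scale, with distance from the midpoint between the pair's genes in kb on the x axis (a scale of its own in each panel), the plus strand above the minus strand, and colour for the log2 fold change of Exon2KO over WT. Heavy outlines mark the 10 genes; Il17rb and Chdh have 126 bases between them, whereas Lbh and Lclat1 are separated by 166.0 kb.

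No tested gene lay between the genes of any pair. Of the genes that did not pass the filter, the pseudogene Gm29519 (1 count over all libraries) lies between Ccl20 and Daw1, and the noncoding genes Gm30420 (13 counts) and Gm23649 (0 counts) lie between Lbh and Lclat1. Entpd8, which encodes an enzyme that breaks down extracellular nucleotides, lies between Nsmf and Noxa1, overlaps the end of Noxa1 and had 16 counts over all libraries.

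Promoter windows of 300 bases, from 250 before to 50 after the start of the gene, were matched by symbol in RefSeq (GRCm38.p6) for 9 of the 10 genes; Nsmf was not matched. The windows of Il17rb and Chdh share 203 bases, since their RefSeq starts are 104 bases apart, so the Chdh window below also holds most of the Il17rb promoter, read from the other strand. Windows of Ccl20, Daw1 and Mstn are shown because these genes had the largest fold changes of the 10. Capitals mark letters that match a searched motif.
Chdh (chr14:30008750-30009049, plus strand): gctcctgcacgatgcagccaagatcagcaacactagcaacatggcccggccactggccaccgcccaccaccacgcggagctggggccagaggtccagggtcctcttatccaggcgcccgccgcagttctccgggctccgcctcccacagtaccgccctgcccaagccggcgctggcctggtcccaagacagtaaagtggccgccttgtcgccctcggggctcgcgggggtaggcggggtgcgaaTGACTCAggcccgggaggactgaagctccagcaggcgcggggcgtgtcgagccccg
Ccl20 (chr1:83116516-83116815, plus strand): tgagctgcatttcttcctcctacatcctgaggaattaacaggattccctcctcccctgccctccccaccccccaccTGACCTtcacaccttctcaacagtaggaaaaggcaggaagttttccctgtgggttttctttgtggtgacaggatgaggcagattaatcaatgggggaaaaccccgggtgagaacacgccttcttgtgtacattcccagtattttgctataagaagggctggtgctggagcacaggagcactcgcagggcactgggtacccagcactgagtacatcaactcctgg
Daw1 (chr1:83159505-83159804, plus strand): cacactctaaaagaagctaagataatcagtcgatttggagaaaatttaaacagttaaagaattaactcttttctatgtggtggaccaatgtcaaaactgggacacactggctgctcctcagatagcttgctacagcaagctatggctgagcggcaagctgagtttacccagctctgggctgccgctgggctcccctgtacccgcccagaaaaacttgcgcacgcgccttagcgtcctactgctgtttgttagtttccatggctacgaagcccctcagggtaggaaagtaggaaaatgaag
Mstn (chr1:53061390-53061689, plus strand): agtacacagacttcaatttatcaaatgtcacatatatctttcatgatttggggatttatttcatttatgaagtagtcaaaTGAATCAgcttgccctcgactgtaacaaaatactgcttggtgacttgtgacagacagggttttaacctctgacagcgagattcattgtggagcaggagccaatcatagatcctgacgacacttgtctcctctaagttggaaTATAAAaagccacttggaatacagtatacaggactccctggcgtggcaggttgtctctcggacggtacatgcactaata

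Letters were searched on both strands for TGTTTAC (the forkhead core, held by 3.65% of the 32851 RefSeq windows of this length), TGANTCA (AP-1, 7.81%), TTCNNNGAA (STAT, 8.3%), the kappaB motif (1.47%), AGGTCA (the core of nuclear receptor sites, 16.3%) and TATAAA (the TATA box, 13.6%). The shared stretch of Il17rb and Chdh held a single match, TGACTCA, whose first base lies at -6 from the Chdh start. On the opposite strand it reads TGAGTCA and begins at -104 from the Il17rb start. In the Mstn window TGAATCA began at -170 and the TATA box at -29. Ccl20 held TGACCT, the nuclear receptor core read from the other strand, at -174, and Lbh held the TATA box at -29. The windows of Daw1, Noxa1 and Lclat1, and the 1700019D03Rik window nearest to the table's start of that gene (27522 bases from it), held none of these letters. No matches overlapped each other. The Il17rb and Chdh windows were 72.0% and 70.3% G and C, against a median of 52.7% over all windows. These matches describe the letters in the windows and were not tested for binding. The kappaB search used a fixed form of that motif, so a window without a match can still hold another form of the site. Such other forms were not searched. The Ccl20 window has a run of G, then A, then C, which the fixed form cannot match. Whether that run is a kappaB site was not tested.

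In the contrast that chose them, all 10 genes were called by edgeR (quasi-likelihood test, adjusted p under 0.05), and the 3 libraries of a genotype did not overlap those of the other for any of them. Of all tested genes, edgeR called 2.33%: 0.757% were up and 1.58% down in Exon2KO. The groups did not overlap for 17.7%. With the replicate block all 10 were called as well, where 3.93% of all tested genes were up and 5.79% down. Ccl20, Daw1, Mstn and 1700019D03Rik were higher in Exon2KO, and the other 6 were lower. In bulk RNA a change in the number of cells that make a transcript and a change in the RNA per cell cannot be told apart.

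**Figure D2:**
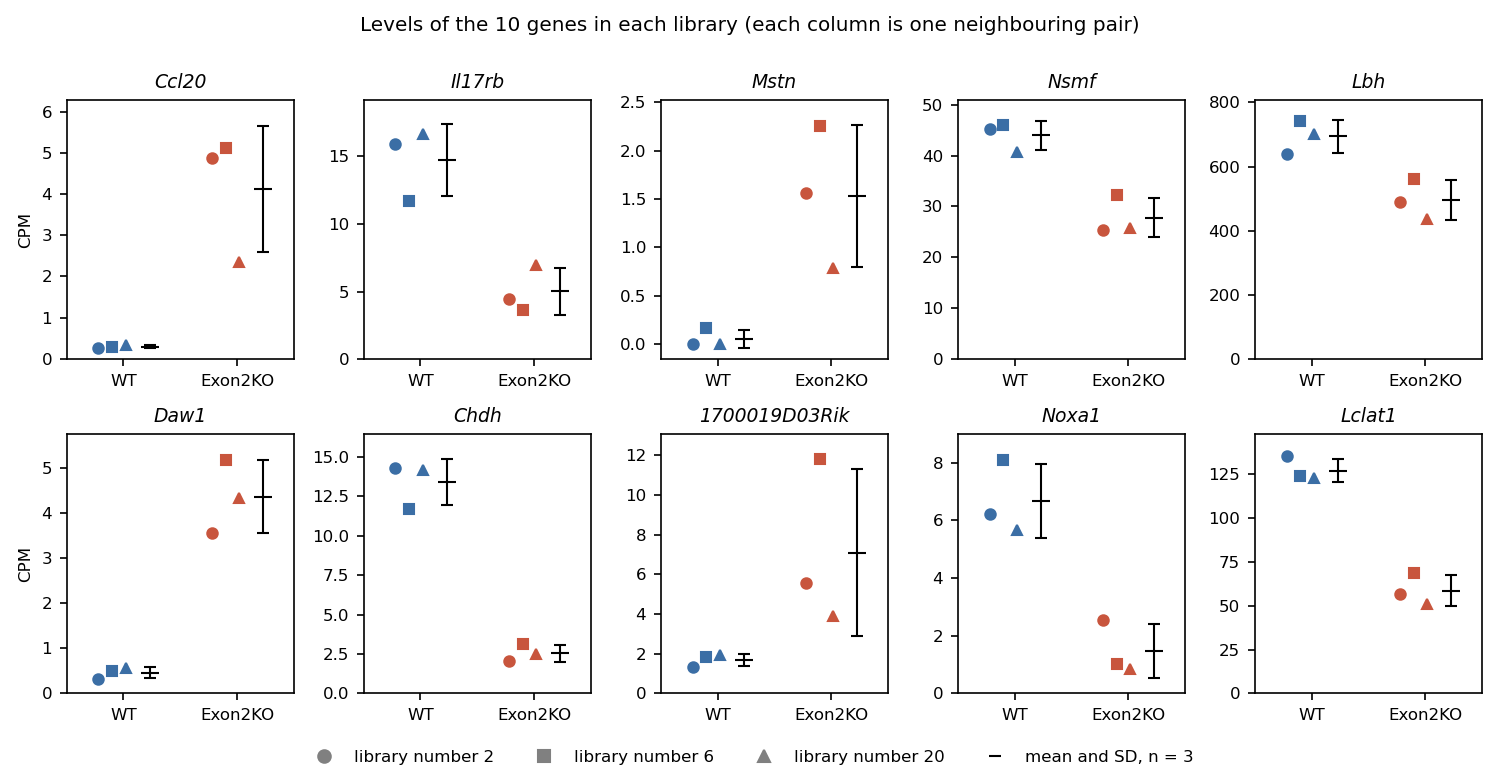
The 10 panels plot CPM on the y axis against genotype, with 1 point per library (shape gives the library number) and the mean with its SD (n = 3) in black beside the points; each column of panels is a pair. In every panel the points of the genotypes are apart, from Mstn (0 to 0.165 CPM in WT, 0.788 to 2.26 CPM in Exon2KO) to Lbh (639 to 742 CPM in WT, 436 to 562 CPM in Exon2KO).

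The chemokine gene Ccl20 was near the limit of detection in WT and plainly present in Exon2KO. Counts were 5, 5 and 7 for WT 2, 6 and 20, against 88, 100 and 42 for Exon2KO 2, 6 and 20; counts of the other genes follow in this order of libraries. Exon2KO 20 was the lowest of its group and was still above the highest WT library. Ccl20 averaged 0.291 ± 0.0328 CPM in WT and 4.13 ± 1.53 CPM in Exon2KO (± SD over 3 libraries each), and its fitted log2 fold change was 3.79 (SE 0.42), or 13.9-fold. Between libraries of the same number the log2 difference was 3.74 (number 2), 3.78 (number 6) and 2.51 (number 20).

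Daw1, whose product helps deliver outer dynein arms to motile cilia, lies downstream of Ccl20 on the same strand. WT libraries gave 6, 9 and 12 counts and Exon2KO libraries 64, 101 and 77. All Exon2KO libraries lay well above all WT libraries, and the order within Exon2KO was not that of Ccl20: Exon2KO 20 was lowest for Ccl20, whereas Exon2KO 2 was lowest for Daw1. Daw1 averaged 0.46 ± 0.124 CPM in WT and 4.36 ± 0.812 CPM in Exon2KO (± SD over 3 libraries each), and its fitted log2 fold change was 3.22 (SE 0.34). Per kb of exon length, Ccl20 and Daw1 had 0.205 ± 0.0231 and 0.215 ± 0.0581 CPM per kb in WT, and 2.9 ± 1.08 and 2.04 ± 0.38 CPM per kb in Exon2KO (SD, n = 3 each). Ccl20 and Daw1 kept their calls in each fit that left out 1 library.

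Mstn was all but absent from WT. Its WT libraries gave 0, 3 and 0 counts, its Exon2KO libraries 28, 44 and 14. The WT counts sum to 3 and the Exon2KO counts to 86. Per total count of the libraries, without TMM scaling, the ratio of Exon2KO to WT is 29.4 (95% exact interval 9.73 to 145, counting error only). The fitted log2 fold change of 4.72 (SE 0.89) depends on the prior count at such low levels, and it became 7.88 without WT 6, when every WT library was at 0. Even in Exon2KO the level was low, at 1.53 ± 0.735 CPM (SD, n = 3).

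The neighbour 1700019D03Rik, a protein-coding gene named only by its RIKEN clone, was measurable in both genotypes. Its WT libraries gave 25, 33 and 41 counts, its Exon2KO libraries 100, 231 and 69. Exon2KO 6 was the highest for both Mstn and 1700019D03Rik, and Exon2KO 20 the lowest for both. 1700019D03Rik averaged 1.69 ± 0.31 CPM in WT and 7.1 ± 4.2 CPM in Exon2KO (± SD over 3 libraries each), and its fitted log2 fold change was 2.06 (SE 0.42). Within library numbers the difference was 1.97, 2.64 and 0.97 on the log2 scale for numbers 2, 6 and 20. The call of Mstn ended without WT 2, WT 20, Exon2KO 2 or Exon2KO 6 (log2 fold changes of 4.20, 4.12, 4.71 and 4.32). That of 1700019D03Rik ended with limma-voom (1.92) and without WT 2, WT 6, WT 20, Exon2KO 2 or Exon2KO 6 (1.92, 2.12, 2.17, 2.21 and 1.46).

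Il17rb was lower in Exon2KO. Counts of 296, 212 and 353 in the WT libraries compared with 80, 71 and 124 in the Exon2KO libraries. The number 20 library was the highest of each genotype and the number 6 library the lowest of each. Il17rb averaged 14.7 ± 2.65 CPM in WT and 5.02 ± 1.74 CPM in Exon2KO (± SD over 3 libraries each), and its fitted log2 fold change was -1.55 (SE 0.25).

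Chdh, which encodes the mitochondrial enzyme that oxidises choline on the way to betaine, gave 266, 212 and 302 counts from WT libraries against 37, 61 and 44 from Exon2KO libraries. Its Exon2KO libraries ran from 2.06 to 3.13 CPM, all under the lowest WT library at 11.7 CPM. Chdh averaged 13.4 ± 1.47 CPM in WT and 2.55 ± 0.541 CPM in Exon2KO (± SD over 3 libraries each), and its fitted log2 fold change was -2.38 (SE 0.21), or 5.22-fold lower. The fitted fold changes of the pair differed by 0.83 on the log2 scale, with the larger fall in Chdh. Per kb of exon length Il17rb had 3.97 ± 0.715 and Chdh 2.15 ± 0.237 CPM per kb in WT, and 1.35 ± 0.47 and 0.411 ± 0.087 CPM per kb in Exon2KO (SD, n = 3 each).

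Both genes overlap a gene on the opposite strand. In GENCODE M21, 141 of the 3707 exon bases of Il17rb are shared with Actr8, a chromatin remodelling subunit gene that had 5243 counts over all libraries against 1136 for Il17rb. Of the 6217 exon bases of Chdh, 589 are shared with the end of the calcium channel gene Cacna1d, which had 651 counts against 922 for Chdh. No strand setting is given in the sources used here, so reads from these shared stretches cannot be told apart; the log2 fold change was -0.11 for Actr8 and 1.54 for Cacna1d. Their part in the values of the pair was not tested. The call of Il17rb ended without WT 2 or without Exon2KO 2 (log2 fold changes of -1.50 and -1.48), and Chdh kept its call in each fit that left out 1 library.

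Nsmf, whose product carries signals from synapses to the nucleus of neurons, was lower by a smaller step. Counts of 842, 835 and 867 in the WT libraries compared with 457, 629 and 458 in the Exon2KO libraries. The highest Exon2KO library (32.3 CPM, Exon2KO 6) was below the lowest WT library (40.7 CPM, WT 20). Nsmf averaged 44.0 ± 2.87 CPM in WT and 27.8 ± 3.86 CPM in Exon2KO (± SD over 3 libraries each), and its fitted log2 fold change was -0.66 (SE 0.12).

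Noxa1 gave 116, 147 and 121 counts from WT libraries against 46, 20 and 15 from Exon2KO libraries. Exon2KO 2 was the highest library of its group for Noxa1, at 2.56 CPM, and the lowest of its group for Nsmf, at 25.4 CPM. Noxa1 averaged 6.67 ± 1.27 CPM in WT and 1.48 ± 0.94 CPM in Exon2KO (± SD over 3 libraries each), and its fitted log2 fold change was -2.17 (SE 0.40), or 4.51-fold lower. The fitted fold changes of the pair differed by 1.51 on the log2 scale. Per kb of exon length Nsmf had 8.98 ± 0.585 and Noxa1 4.12 ± 0.784 CPM per kb in WT, and 5.68 ± 0.789 and 0.912 ± 0.582 CPM per kb in Exon2KO (SD, n = 3 each). The call of Nsmf ended without WT 2, WT 6 or Exon2KO 2 (log2 fold changes of -0.64, -0.62 and -0.60), and that of Noxa1 without WT 2, WT 6 or Exon2KO 6 (-2.22, -2.01 and -1.97).

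Lbh, a transcription cofactor gene named for the limb bud and heart, was the most abundant of the 10 genes per kb of exon length, at 216 ± 16.1 CPM per kb in WT and 154 ± 19.8 CPM per kb in Exon2KO (SD, n = 3 each). Counts of 11903, 13473 and 14938 in the WT libraries compared with 8830, 10964 and 7741 in the Exon2KO libraries. The gap between the highest Exon2KO library (562 CPM) and the lowest WT library (639 CPM) was narrow. Lbh averaged 694 ± 51.8 CPM in WT and 496 ± 63.6 CPM in Exon2KO (± SD over 3 libraries each), and its fitted log2 fold change was -0.48 (SE 0.11).

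Lclat1 encodes an acyltransferase that remodels cardiolipin, the lipid of the inner mitochondrial membrane, and related phospholipids. WT libraries gave 2510, 2257 and 2618 counts and Exon2KO libraries 1016, 1333 and 903. WT libraries lay between 123 and 135 CPM and Exon2KO libraries between 50.8 and 68.4 CPM, with Exon2KO 6 the highest of its group for both Lbh and Lclat1. Lclat1 averaged 127 ± 6.51 CPM in WT and 58.5 ± 8.97 CPM in Exon2KO (± SD over 3 libraries each), and its fitted log2 fold change was -1.12 (SE 0.11), or 2.17-fold lower. Lclat1 kept its call in each fit that left out 1 library. Lbh is just inside the threshold (edgeR adjusted p = 0.0487): its call ended with RLE scaling (-0.48), without both libraries numbered 20 (-0.39), and without WT 2, WT 6, WT 20, Exon2KO 2 or Exon2KO 20 (-0.54, -0.43, -0.48, -0.48 and -0.40).

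To see how far along the chromosome the differences reached, the 3 tested genes on either side of each pair were read from the same fit. None of these 30 flanking genes was called by edgeR, against 2.33% of all tested genes. By edgeR, 4 had an unadjusted p under 0.05, against 12.1% of all tested genes. DESeq2 called 2 of the 30 and 667 genes in all, and limma-voom called 0 of the 30 and 328 genes in all. The median absolute log2 fold change was 0.16 over the flanking genes and 0.14 over all tested genes. Nearest to Il17rb and Chdh, and overlapping them, Actr8 had a log2 fold change of -0.11 (SE 0.08) and Cacna1d of 1.54 (SE 0.65). The next genes outward, Selenok (20.5 kb from Il17rb) and Dcp1a (439 kb from Chdh), were at -0.05 (SE 0.09) and 0.08 (SE 0.07). Hibch, an enzyme of valine breakdown whose gene ends 1.34 kb from 1700019D03Rik, was at 0.10 (SE 0.14), and the mismatch repair gene Pms1 on the Mstn side at 0.05 (SE 0.13). Pnpla7, a lysophospholipase gene that ends 0.297 kb before Nsmf, was at -0.24 (SE 0.13). Beyond Noxa1, Nrarp, which encodes a regulator of Notch signalling, was at 0.10 (SE 0.23). Ypel5, upstream of Lbh, was at 0.04 (SE 0.10). The nearest tested genes to Ccl20 and Daw1 were 203 kb (A030005L19Rik, -0.16, SE 0.40) and 826 kb away (Pid1, -0.16, SE 0.52).

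A few flanking genes had larger values. The pseudogene Gm9311 inside Lclat1, on the opposite strand, had a log2 fold change of -1.33 (SE 0.45) at an edgeR adjusted p of 0.22, and the noncoding gene E330032C10Rik, 7.62 kb beyond Lclat1, had -1.05 (SE 0.74). The pseudogene Gm17764, 294 kb before Ccl20, was at -1.10 (SE 0.27, edgeR adjusted p = 0.0832), against the direction of that pair. Cacna1d had 3.01, 2.53 and 3.19 CPM in WT 2, 6 and 20 and 6.67, 16.3 and 2.42 CPM in Exon2KO 2, 6 and 20, so the genotypes overlapped and Exon2KO 6 was far above the others. Without Exon2KO 20, Cacna1d was called higher (1.97, SE 0.35, edgeR adjusted p = 0.028). With the column number as a replicate block, 4 of the 30 were called, where 9.72% of all tested genes were: Gm17764 (-1.06), Pnpla7 (-0.23), Mfsd6 (0.35) and Inpp1 (0.26), the last a pair of genes on the 1700019D03Rik side. DESeq2, with 667 genes called in all, called Gm17764 (-1.10) and Cacna1d (1.54). Without a count filter edgeR called 617 genes in all, and of the flanking genes Gm17764 (-1.10).

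**Figure D3:**
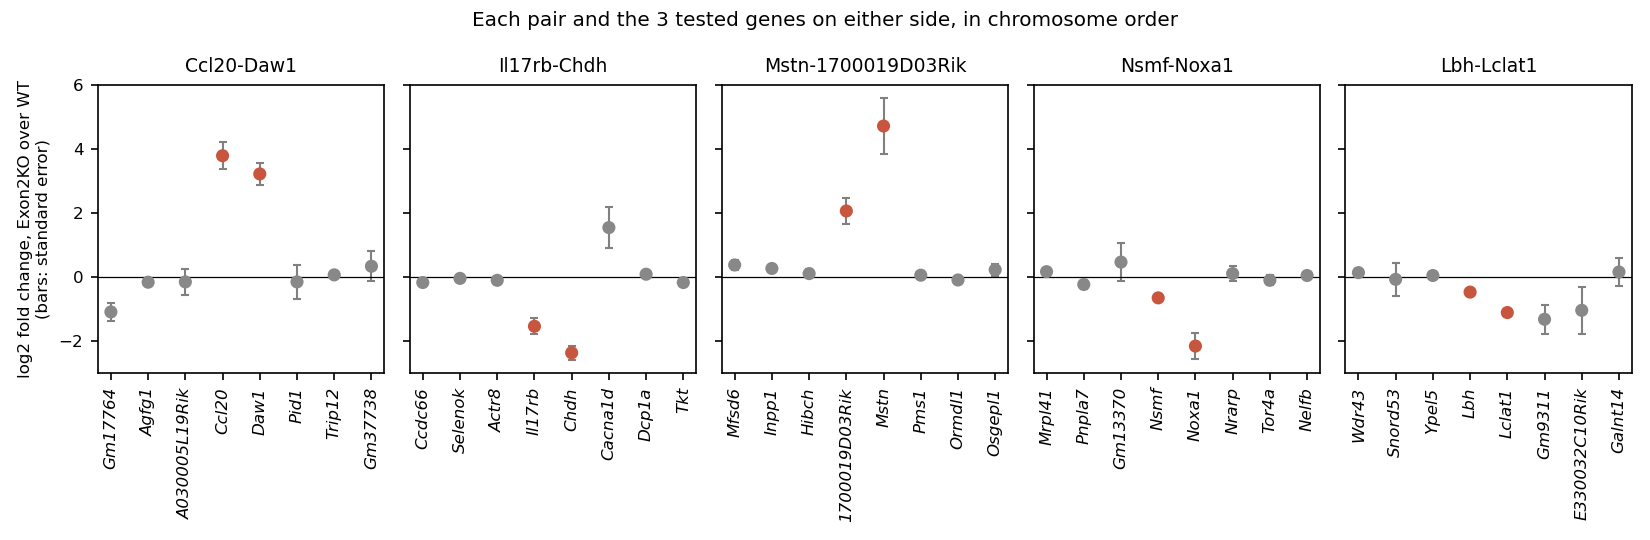
Each panel plots the log2 fold change of Exon2KO over WT (y axis, bars give the SE) for a pair (red) and for the 3 tested genes on either side (grey) in chromosome order. Cacna1d (1.54, SE 0.65), Gm9311 (-1.33, SE 0.45), Gm17764 (-1.10, SE 0.27) and E330032C10Rik (-1.05, SE 0.74) lie farthest from 0 among the flanking genes, and the others lie between -0.24 and 0.46.

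The 5 pairs were then set among all neighbours. The tested genes form 14859 adjacent pairs, of which 665 held at least 1 called gene. In 25 of them (0.168%) both genes were called in the same direction, 5 higher and 20 lower, and in 4 the calls were in opposite directions. Ccl20-Daw1 and 1700019D03Rik-Mstn are 2 of the 5 higher pairs, and Il17rb-Chdh, Nsmf-Noxa1 and Lbh-Lclat1 are 3 of the 20 lower pairs. Of the 25 pairs, 17 joined protein-coding genes, and 12 of these did so with no overlap of the gene bodies. Among all 711 head-to-head pairs with under 1000 bases between them, 13 held a called gene and Il17rb-Chdh was the single pair with both genes called. The share called together was 0.166% of head-to-head, 0.204% of same-strand, 0.0696% of tail-to-tail and 0.192% of overlapping pairs; these shares were not compared by a test.

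Ranked by the smaller of the fold changes of the pair, the pairs ahead of Ccl20-Daw1 were of another kind. Slc7a10 and Lrp3 (-3.68 and -3.50) overlap on opposite strands. Ighj2 with Ighj1 (-3.26 and -3.79) and Ighj1 with Ighd4-1 (-3.79 and -3.25) are immunoglobulin heavy-chain segments within 1 kb of each other. A further 2 pairs of heavy-chain joining segments ranked next, with 3.23 for the smaller absolute change of each, and then Ccl20-Daw1 with 3.22. The distance between genes was 16.5 kb at the median of the 20 pairs called together without overlap, and 21.1 kb at the median of all 12257 adjacent pairs without overlap. Across these 12257 pairs the Pearson r of the neighbours' log2 fold changes was 0.16, a value across genes measured in the same libraries.

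**Figure D4:**
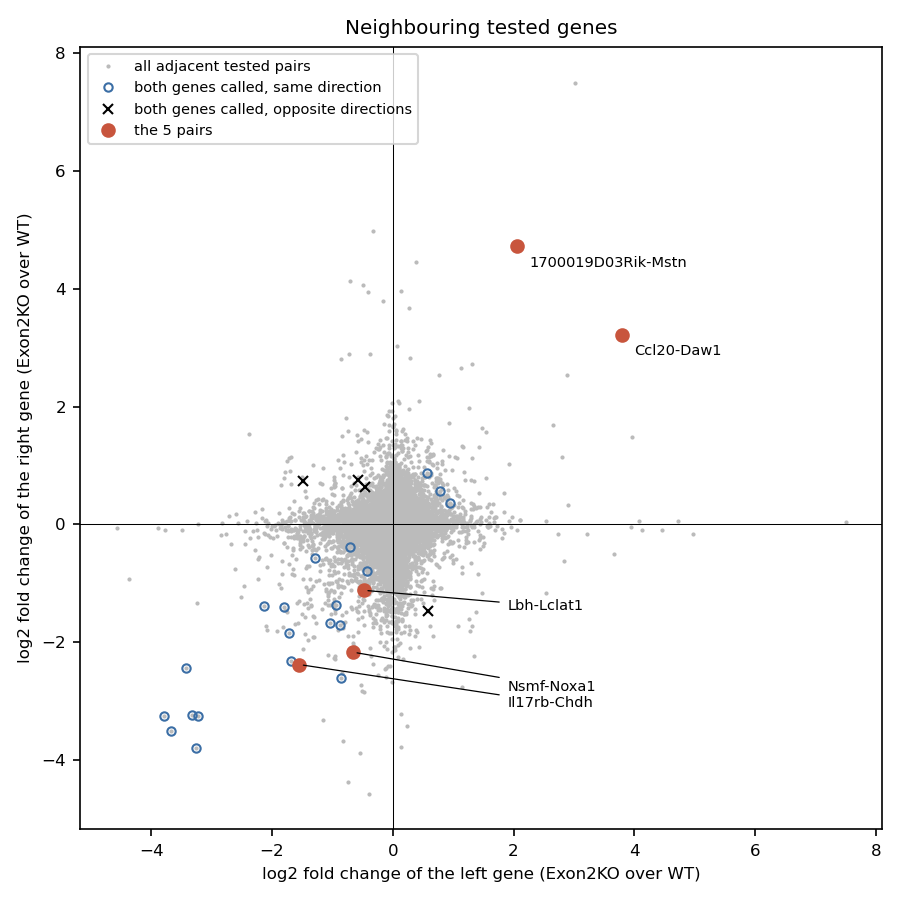
Each grey point is 1 of the 14859 adjacent pairs of tested genes, with the log2 fold change (Exon2KO over WT) of the left gene on the x axis and of the right gene on the y axis. Blue circles and red points are the 25 pairs with both genes called in the same direction, the red points being the 5 pairs described here, and crosses are the 4 pairs called in opposite directions; most pairs lie close to an axis or to 0.

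Library numbers within a genotype give another contrast, in which the genes of a pair can be set side by side between libraries 2, 6 and 20. It is not independent of the choice of the pairs, since differences between library numbers were part of the spread against which the genotypes were tested, so genes with large ones were less likely to be chosen. The values are therefore a description. With genotype in the model, 10.4% of the 14919 genes were called for the column number by edgeR. None of the 10 genes was called (edgeR adjusted p from 0.0721 for Il17rb to 0.97 for Chdh). By edgeR, 3 had an unadjusted p under 0.05, against 25.2% of all tested genes. The DESeq2 likelihood ratio test called 0 of the 10 and 1000 genes in all. From number 2 to number 20 the log2 difference was 0.31 for Il17rb and 0.08 for Chdh, and from number 2 to number 6 it was -0.38 and 0.04. The differences from 2 to 20 had the same sign within 4 of the 5 pairs and within 53.2% of all adjacent pairs. Il17rb and Chdh, with the values above, are among the 4. In the others they were -0.94 for Mstn and -0.04 for 1700019D03Rik, -0.07 for Nsmf and -0.72 for Noxa1, and -0.02 for Lbh and -0.14 for Lclat1. Ccl20 (-0.72) and Daw1 (0.43) had opposite signs. From 2 to 6, Il17rb and Chdh had opposite signs, as did Nsmf (0.18) and Noxa1 (-0.3). In that step the signs were the same for Ccl20 (0.06) and Daw1 (0.55), and for Mstn (0.85) and 1700019D03Rik (0.87). They were also the same for Lbh (0.21) and Lclat1 (0.07). With 12 counts or fewer in every WT library, the values of Mstn, Ccl20 and Daw1 between library numbers rest mainly on Exon2KO, the genotype through which these genes passed the filter.

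After the mean of each genotype was taken out, the Pearson r of the pair's log2 CPM over the 6 libraries was 0.68 for Mstn and 1700019D03Rik and 0.67 for Lbh and Lclat1. It was 0.13 for Ccl20 and Daw1, -0.03 for Il17rb and Chdh and -0.24 for Nsmf and Noxa1. Over all adjacent pairs the quartiles of this value were -0.37, 0.10 and 0.54. Each r rests on 6 libraries, and the r of 0.68 also rests mainly on the Exon2KO libraries, since Mstn had 0, 3 and 0 counts in WT. By this measure the most alike gene was Cldnd1 for Ccl20-Daw1 (mean r 0.75), Med9 for Il17rb-Chdh (0.70), Ppp1ccb for Mstn-1700019D03Rik (0.92) and Tapbpl for Nsmf-Noxa1 (0.62), each the highest of 14918 genes ranked. The value for Ccl20-Daw1 rests mainly on the Exon2KO libraries, and Cldnd1 was lower in Exon2KO (-0.57) while Ccl20 and Daw1 were higher.

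Other genes of the same pathways were read from 7 lists. Of their 66 tested genes, 3 were called higher and 3 lower by edgeR (2.33% of all tested genes were called), and the median log2 fold change was 0.00, against 0.01 over all tested genes. Ccr6, the receptor of the Ccl20 protein, had 35.9 ± 6.94 CPM in WT and 17.1 ± 6.22 CPM in Exon2KO (SD, n = 3 each; log2 fold change -1.07, SE 0.29, edgeR adjusted p = 0.168), and none of the 9 tested genes of the chemokine list was called. In the IL-17 receptor list, 2 of 6 tested genes were called higher and 0 lower, with a median of 0.14. Il17ra, which encodes the chain that pairs with the Il17rb product, rose from 263 ± 11.7 to 356 ± 6.42 CPM (log2 fold change 0.44, SE 0.07, edgeR adjusted p = 0.0146, n = 3 each). Traf6, a signalling adaptor gene, was not called in this fit and was called with the replicate block (log2 fold change 0.25 without it, blocked adjusted p = 0.0133). The ligand gene Il25 had 0 counts in all libraries. Il17a was also called higher, from 0 to 1 count in WT to 16 at most in Exon2KO.

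In the choline and betaine list, 1 of 10 tested genes was called, lower: Pcyt1b, an enzyme of phosphatidylcholine synthesis, fell from 6.62 ± 1.63 to 2.41 ± 0.278 CPM (log2 fold change -1.46, SE 0.26, edgeR adjusted p = 0.021, n = 3 each). In the myostatin and activin list 1 of 12 was called, higher: Smad7, the inhibitory SMAD, rose, with a log2 fold change of 0.45 (SE 0.09) at an edgeR adjusted p of 0.0324. With the replicate block, which called 9.72% of all tested genes, 5 of the 12 were called: Smad7, and also the receptor genes Tgfbr1 (log2 fold change -0.46 without the block, blocked adjusted p = 8.77e-05) and Acvr1b (0.28, 0.0239), the myostatin-binding inhibitor gene Wfikkn2 (0.99, 0.0125) and the protease gene Furin (0.21, 0.0321). Of these 5, Tgfbr1 was lower in Exon2KO and the others higher. Of the type II receptors that bind myostatin, Acvr2a had 14.7 ± 1.45 CPM in WT and 14.8 ± 1.52 CPM in Exon2KO (SD, n = 3 each), with a log2 fold change of 0.01 (SE 0.14), and Acvr2b had 3 to 11 counts a library and was not tested. In the NADPH oxidase list 1 of 9 was called, lower: Ncf4, a regulatory subunit of the phagocyte oxidase, fell, with a log2 fold change of -0.37 (SE 0.08) at an edgeR adjusted p of 0.0459. Nox1, the partner of the Noxa1 product, had 2 to 29 counts a library (log2 fold change -1.51, SE 0.68, edgeR adjusted p = 0.418). Cybb, the catalytic subunit of the phagocyte oxidase, was at -0.93 (SE 0.31, edgeR adjusted p = 0.289) and Cyba at -0.14 (SE 0.07). In the cardiolipin and acyltransferase list 1 of 15 was called, Lpcat1 (-0.32, SE 0.07, edgeR adjusted p = 0.044), and Taz, which like Lclat1 remodels cardiolipin, was at -0.05 (SE 0.13). None of the 5 tested genes of the axonemal dynein list was called, and their median was 0.15. With the replicate block, 11 of the 66 list genes were called in place of 6, where the share over all tested genes went from 2.33% to 9.72%, and over the fits that left out 1 library the count ran from 0 (without WT 2, and without Exon2KO 2) to 7 (without Exon2KO 20); it was 2 without WT 6 and 1 without WT 20 or without Exon2KO 6.

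Markers of other cell types were read in the same libraries. Of 4 epithelial markers Krt8 had 0 counts, and Krt18 (0.489 ± 0.152 CPM in WT, 0.434 ± 0.166 CPM in Exon2KO) and Cdh1 (0.339 ± 0.151 and 0.549 ± 0.235 CPM) were too low to be tested. Epcam fell from 14.5 ± 1.29 to 4.07 ± 0.484 CPM (log2 fold change -1.83, SE 0.17, edgeR adjusted p = 0.00148, n = 3 each), against the direction of Ccl20. Their summed level was 14.0 to 16.5 CPM in WT and 4.39 to 5.89 CPM in Exon2KO. Of 5 muscle markers Myod1 and Myog had 0 counts, and the summed level was 14.5 to 19.2 CPM in WT and 15.9 to 17.9 CPM in Exon2KO, nearly all of it from Mylpf (16.4 CPM in both genotypes), while Mstn was higher in Exon2KO. Of 4 markers of ciliated cells Dnah5 had 0 counts, none was called, and the sum was 2.64 to 5.40 CPM in WT and 2.10 to 4.67 CPM in Exon2KO, while Daw1 was higher in Exon2KO. The 5 B cell markers summed to 31.1 to 31.9 CPM in WT and 24.8 to 27.6 CPM in Exon2KO, so their sums did not overlap. Most of that sum was Cd79b (21.6 ± 1.23 and 15.2 ± 1.56 CPM, SD, n = 3 each), whose log2 fold change was -0.51 (SE 0.13, edgeR adjusted p = 0.0828). Sums overlapped between WT and Exon2KO for 5 myeloid markers (18.4 to 49.0 and 15.3 to 37.6 CPM), 4 CD8 and NK markers (13.3 to 16.0 and 10.5 to 14.3 CPM) and 4 erythroid markers (4.46 to 15.5 and 3.21 to 10.9 CPM). No marker of these 4 lists was called by edgeR; with the replicate block, which called 9.72% of all tested genes, Cd79b (adjusted p = 0.00501) and the myeloid marker Lyz2 (adjusted p = 0.0413) were. The part of these cells in the values of the 10 genes was not tested.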

How the data were processed

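RNA-seq libraries of 3 WT and 3 Exon2KO Treg samples were analysed from 1 deposited table of 55840 genes. Per the file headers, it holds a column of counts per library, not normalized, which were used for all tests. The authors also deposited a signal (scaled counts averaged over each genotype), log2 fold changes and p-values, which support no result here, and 6 further columns of values per library, which were not used. The submitters' processing notes name HISAT2 2.0.5, StringTie 1.3.3b, featureCounts 1.5.0-p3, DESeq2 1.16.1 and mm10; the strand setting and the annotation are not given in the sources used here. Of the identifiers, 55480 occur in GENCODE M21 and 55267 have the same position there, as do all 10 genes.

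Tests used edgeR 4.0.16 in R 4.3.3 (filterByExpr, TMM, robust quasi-likelihood fit, Benjamini-Hochberg over 14919 tested genes, called at an adjusted p under 0.05). Alternatives used DESeq2 1.42.0 and limma 3.58.1. The SE is the absolute log2 fold change divided by the root of F. CPM use the TMM-scaled library size, and log2 CPM a prior count of 2. A floor of 3 counts was 0.141 to 0.169 CPM per library, and values below it are printed as measured. This floor covers counting error only. Replicates differed by more than sampling noise (chi-square per degree of freedom 8.12 to 23.6). Neighbours are tested genes next to each other by gene start on a chromosome. Because columns carry numbers that match no sample title, a column was assigned to its genotype only. Same-numbered libraries deviated together from their group means (r over genes 0.271, 0.369 and 0.494 for numbers 2, 6 and 20), so the column number was used as a replicate block in an alternative fit. P-values set a difference against the spread between these samples, which the fits estimate in part from all genes together.

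The members and the gene lists were chosen with earlier results of these data known. Named genes are the 10 members, flanking genes that are nearest or called, called list genes and partners of members, the gene most like each pair, and the 3 other leading pairs; some genes that this rule names are not reported here. In addition, further flanking genes, the marker genes, Acvr2a and the list genes called with the block are named after their values were seen. Scripts were tested on simulated data.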

Additional observations from a re-analysis of the deposited data

How the results depend on the processing

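Called genes numbered 348, against 617 with no filter on counts, 667 with DESeq2 and 1450 with the replicate block, and 86 to 314 when 1 library at a time was left out. The 25 neighbouring pairs called together became 39, 58 and 176 under the same 3 settings, and 8 to 23 over those fits; they were 18 when neighbours were taken among all genes of the table and 20 for protein-coding genes alone. Flanking genes called went from 0 to 1 without a count filter, 2 with DESeq2 and 4 with the block, and 0 to 1 over those fits. Pathway list genes called went from 6 to 11 with the block and 0 to 7 over those fits. Genes called for the column number went from 1559 to 2530 without a filter, 1000 with DESeq2 and 295 to 1610 over those fits, the latter chosen after seeing the data. Of the 10 genes, 4 (without WT 2) to 9 (without Exon2KO 20) kept a call when 1 library was left out, and 9 without both libraries numbered 20, a setting also chosen after seeing the data. Both genes of a pair stayed called in 1 pair (Ccl20-Daw1) without WT 2 or Exon2KO 2, and in 4 pairs without Exon2KO 20. No gene of the 10 changed direction in any setting that tested it; the filter of at least 10 counts in every library removed Ccl20, Daw1 and Mstn. The replicate block ended no call of the 10. The cause of these shifts was not tested. Depth limits Ccl20, Daw1 and Mstn most, with 12 counts or fewer in every WT library, so they passed the filter through Exon2KO.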

Other observations

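Among neighbours called in opposite directions, named after their values were seen, were Adora2a, an adenosine receptor gene, and Gucd1 (-0.58 and 0.76), 2310015A10Rik and Actn1 (-1.49 and 0.73), Arl4c and Sh3bp4 (0.58 and -1.47), and Hip1r and Vps37b (-0.46 and 0.63), all as log2 fold changes of Exon2KO over WT. Other protein-coding pairs called in the same direction without overlap, also named after their values were seen, included Fam160a1 and Glt28d2 (-1.68 and -2.32, 52.56 kb apart). The smaller absolute change of that pair, 1.68, was above those of Il17rb-Chdh (1.55), Nsmf-Noxa1 (0.66) and Lbh-Lclat1 (0.48). Also among them were the TNF receptor genes Tnfrsf1b and Tnfrsf8 (-1.04 and -1.67, 20.27 kb apart) and Gpr15 with Cldnd1 (-1.29 and -0.57, 8.84 kb apart). Il2rb, a chain of the interleukin 2 receptor, paired with C1qtnf6 (-0.43 and -0.80, 28.07 kb apart).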
